A study of Mus musculus with 6 samples.

Results

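The 10 genes described here are transcription factors, with a cofactor, Greb1, of the tail bud and the paraxial mesoderm, chosen by symbol: T, Tbx6, Msgn1, Cdx1, Cdx2, Cdx4, Evx1, Nkx1-2, Sall4 and Greb1. The platform annotation assigned 13 probe sets to 9 of these 10 genes and to no other gene, out of 12393 genes named by it and 22626 probe sets tested. No probe set was assigned to T in the annotation used, so T is not analysed here. RNA came from the presomitic mesoderm level of 9.5 dpc (days post coitum) mouse embryos, the unsegmented tail tissue behind the last somite, which held cells of all germ layers. Wild-type C57BL/6 embryos were compared with C57BL/6 embryos homozygous for Dll3tm1Rbe, also called Dll3neo, a targeted allele of the Notch ligand gene Dll3. Each genotype had 3 biological pools, hybridised to 1 Affymetrix MOE430A array apiece, and the sources used here do not give how many embryos a pool held.

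These genes keep the body axis growing. Wnt and FGF signals in the tail bud maintain progenitor cells that express T, Cdx genes and Nkx1-2, and cells that leave this pool for the mesoderm switch on Tbx6 and Msgn1. Notch signalling acts in the same tissue, where it drives the segmentation clock that cuts the presomitic mesoderm into somites, and Dll3 is a divergent ligand of that pathway.

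The upstream DNA of 4 members is shown because they differ in how they varied over the pools: Tbx6 had no overlap between genotypes and kept most of its difference without any 1 pool, Msgn1 is its partner in paraxial fate, Cdx2 was lowest in mutant pool 2, and Cdx4 was highest in wild-type pool 3. Each line gives the 250 bases before the transcription start, 5′ to 3′ on the gene's strand, from RefSeq on GRCm38.p6. Capitals mark matches, on either strand, to the TCF/LEF cores ACAAAG and TCAAAG, the T-box core AGGTGT, the RBPJ core TGGGAA and the CDX core TTTATG. The windows are chr7:126781233-126781482 (plus strand) for Tbx6, chr12:11208949-11209198 (minus strand) for Msgn1, chr5:147307250-147307499 (minus strand) for Cdx2 and chrX:103321148-103321397 (plus strand) for Cdx4.
Tbx6: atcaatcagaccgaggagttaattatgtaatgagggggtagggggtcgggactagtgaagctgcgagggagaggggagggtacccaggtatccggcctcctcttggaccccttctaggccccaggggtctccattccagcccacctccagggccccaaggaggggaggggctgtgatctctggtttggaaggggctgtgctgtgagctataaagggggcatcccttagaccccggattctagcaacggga
Msgn1: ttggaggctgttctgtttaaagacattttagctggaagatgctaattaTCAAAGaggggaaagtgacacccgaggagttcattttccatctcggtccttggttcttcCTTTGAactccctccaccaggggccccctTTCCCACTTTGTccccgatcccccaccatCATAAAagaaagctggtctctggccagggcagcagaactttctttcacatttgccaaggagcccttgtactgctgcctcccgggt
Cdx2: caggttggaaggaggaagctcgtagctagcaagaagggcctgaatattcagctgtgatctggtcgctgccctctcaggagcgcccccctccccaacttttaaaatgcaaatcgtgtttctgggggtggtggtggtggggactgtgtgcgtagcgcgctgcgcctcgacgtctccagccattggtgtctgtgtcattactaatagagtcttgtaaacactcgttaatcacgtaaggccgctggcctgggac
Cdx4: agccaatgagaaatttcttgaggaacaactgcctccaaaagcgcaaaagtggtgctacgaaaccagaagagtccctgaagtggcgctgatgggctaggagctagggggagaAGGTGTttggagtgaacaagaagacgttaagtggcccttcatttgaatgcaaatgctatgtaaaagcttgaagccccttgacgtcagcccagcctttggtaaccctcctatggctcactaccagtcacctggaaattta

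The Msgn1 window held 3 TCF/LEF cores, at bases 202 to 197, 143 to 138 and 108 to 103 before the start. It also held an RBPJ core at bases 114 to 109, which adjoins the last of these without overlap, and a CDX core at bases 85 to 80. The Cdx4 window held 1 match, a T-box core at bases 139 to 134. The Tbx6 and Cdx2 windows held none of the 5 cores. Over all 32851 windows of this length, 16.5% held ACAAAG, 13.8% TCAAAG, 11.8% AGGTGT, 21.6% TGGGAA and 10.8% TTTATG, so each core is common and a match is a description of letters only. RefSeq windows were matched for 7 of the 9 measured genes.

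The deposited values are ratios in which 1 is a probe set's median across the 6 arrays. They rank the pools within a probe set and say nothing about how abundant a transcript was. Whether the tissue expressed its defining markers could therefore not be checked from levels. Dll3 itself, read by probe set 1449236_at, served as the check of the labels: in the order of pools 1, 2 and 3, its ratio was 1.46, 1.63 and 2.01 for the wild type, against 0.480, 0.476 and 0.537 for the mutant. It was the 1 probe set of 22626, or 0.00442% in either direction, that passed the test (limma adjusted p = 0.00691). Dll3 missed the threshold when wild-type pool 2 or any 1 mutant pool was left out (adjusted p from 0.0627 to 0.0924). Whether the probe set covers the mutated sequence is unknown.

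Across the members, 12 of 13 probe sets were lower in the mutant by sign, beside 50.9% of all probe sets. Their median log2 difference, mutant minus wild type, was -0.33, beside -0.0021 over all probe sets. The members were chosen with earlier results of these data known, so these contrasts are descriptions and not independent support. No member passed the test over all probe sets in either direction (limma adjusted p = 0.9999 for each of the 13). Unadjusted p was under 0.05 for 2 members, Tbx6 and Greb1, both lower, beside 0.548% of all probe sets for lower ones and 1.16% in either direction. The same 2 were the members whose 3 mutant values all lay below all 3 wild-type values, beside 1.99% of all probe sets, and none lay wholly above, beside 3.05%. In bulk tissue, fewer cells of a type and less RNA per cell cannot be told apart.

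**Figure D1:**
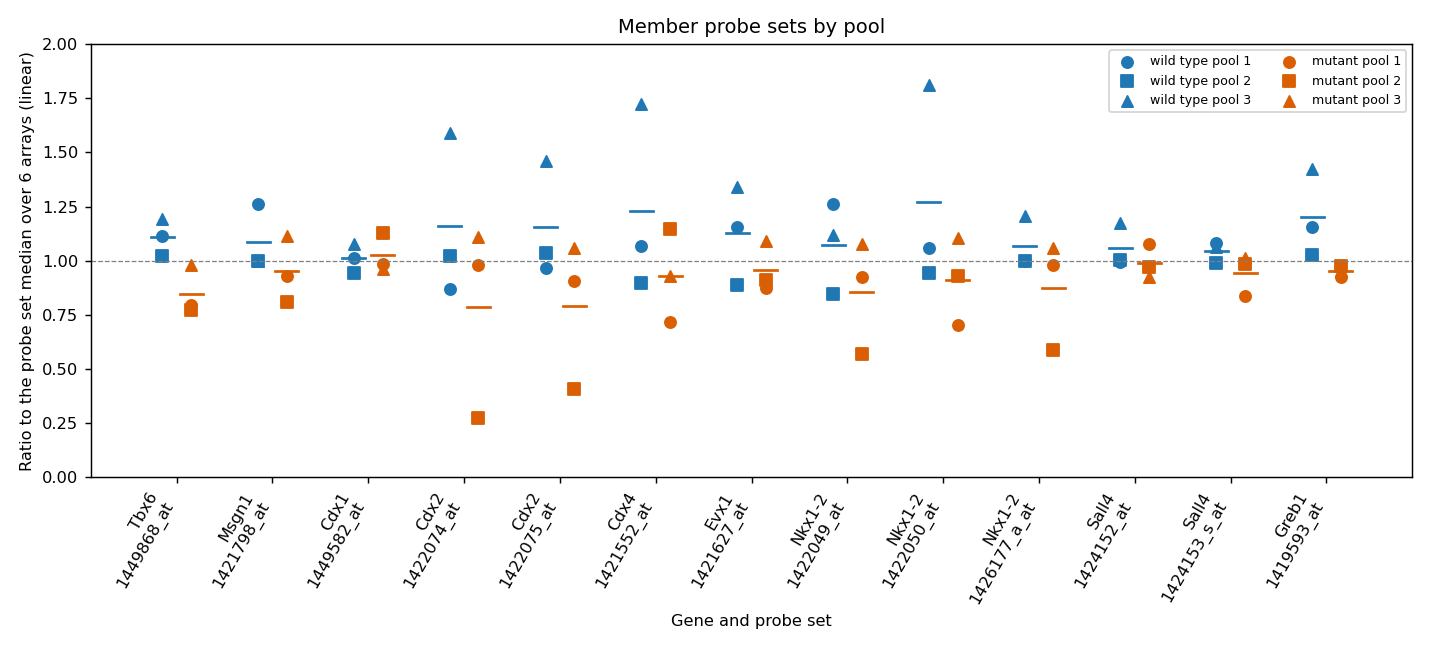
Ratio of each member probe set to its median over the 6 arrays (linear axis) in every pool, wild type in blue and mutant in orange, with circles, squares and triangles for pools 1, 2 and 3 and short lines for the mean of 3 pools. Tbx6 and Greb1 show no overlap between genotypes, and the lowest points are mutant pool 2 for Cdx2, at 0.274 and 0.409.

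Tbx6 encodes the T-box factor that commits cells to paraxial mesoderm and activates segmentation genes. In the order of pools 1, 2 and 3, kept throughout, its ratio was 1.12, 1.02 and 1.19 for the wild type, against 0.794, 0.773 and 0.979 for the mutant. Mutant pools 1 and 2 were clearly low, while mutant pool 3 came close to wild-type pool 2. The means were 1.11 ± 0.0857 and 0.849 ± 0.113 (SD, n = 3 each), a 1.31-fold lower mutant mean on the log2 scale. The log2 difference was -0.39 (SE 0.13, 95% interval -0.68 to -0.10), with a limma unadjusted p of 0.0137 and adjusted p of 0.9999. Leaving out 1 pool at a time kept it between -0.50 and -0.33. An exact permutation test of 3 against 3 pools cannot go below 0.10, so none was run.

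Msgn1 encodes a basic helix-loop-helix factor that drives cells out of the progenitor state into presomitic mesoderm and is a known Wnt target. Its ratio was 1.26 in wild-type pool 1 and 1 in the other wild-type pools, against 0.931, 0.810 and 1.12 for the mutant. Mutant pool 3 lay above wild-type pools 2 and 3, so the genotypes overlapped. The log2 difference was -0.19 (SE 0.15, 95% interval -0.54 to 0.15). It shrank to -0.08 when wild-type pool 1 was left out, and likewise to -0.08 for mutant pool 2, and was -0.32 without mutant pool 3. Tbx6 and Msgn1 shared their lowest pool, mutant pool 2, but not their highest, which was wild-type pool 3 for Tbx6 and wild-type pool 1 for Msgn1.

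Greb1 encodes a cofactor best known from oestrogen response. Its ratio was 1.16, 1.03 and 1.42 in the wild-type pools and 0.927, 0.975 and 0.952 in the mutant pools. The mutant pools lay close together (SD 0.0240) and below every wild-type pool, while wild-type pool 3 stood high. The log2 difference was -0.32 (SE 0.14, 95% interval -0.63 to -0.02; limma unadjusted p = 0.0398, adjusted p = 0.9999). It was -0.19 without wild-type pool 3, so that pool carried a good part of its size.

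The Cdx genes are homeobox genes, related to caudal of the fly, that set trunk Hox expression and sustain axis growth. Cdx2 had the lowest member values. By probe set 1422074_at its ratio was 0.871, 1.02 and 1.59 in the wild-type pools and 0.978, 0.274 and 1.11 in the mutant pools. By probe set 1422075_at it was 0.965, 1.04 and 1.46 in the wild-type pools and 0.905, 0.409 and 1.06 in the mutant pools. Both probe sets thus put wild-type pool 3 highest and mutant pool 2 lowest, with the other 4 pools mixed between them. In mutant pool 2, 21 of 22626 probe sets had a ratio below that of 1422074_at and 53 had one below that of 1422075_at. The log2 differences were -0.75 (SE 0.47) and -0.63 (SE 0.32). Without mutant pool 2 they were -0.11 and -0.21, and without wild-type pool 3 they were -0.50 and -0.45. Their size thus came mostly from 1 pool, and the 95% intervals reached from -1.80 to 0.30 and from -1.35 to 0.08.

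Cdx4 gave 1.07, 0.899 and 1.72 in the wild-type pools and 0.719, 1.15 and 0.930 in the mutant pools. Mutant pool 2, the lowest for Cdx2, was the highest mutant pool here, and wild-type pool 3 stood alone at the top. The log2 difference of -0.37 (SE 0.24) was -0.10 when wild-type pool 3 was left out and -0.20 when mutant pool 1 was. In wild-type pool 3, 161 of 22626 probe sets had a ratio above that of Cdx4. Cdx1 gave 1.01, 0.943 and 1.08 in the wild-type pools and 0.986, 1.13 and 0.961 in the mutant pools. The genotypes were interleaved, and it was the 1 member probe set that was higher in the mutant by sign, with a log2 difference of 0.02 (SE 0.12, 95% interval -0.25 to 0.28). Its sign turned without wild-type pool 2 (-0.03) or mutant pool 2 (-0.05).

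**Figure D2:**
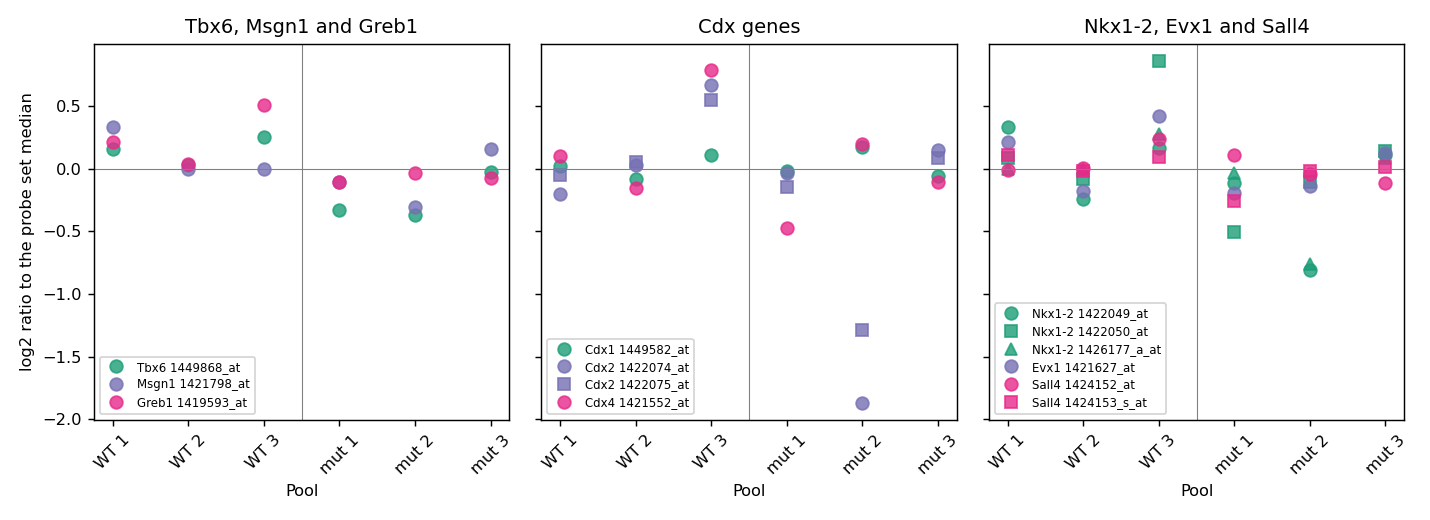
log2 ratio to the probe set median (vertical axis) in each of the 6 pools for the 13 member probe sets in 3 panels, with different marker shapes for the probe sets of 1 gene. In the middle panel Cdx2 drops in mutant pool 2 by both probe sets while Cdx1 and Cdx4 do not, and in the right panel 2 of 3 Nkx1-2 probe sets drop in the same pool.

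Nkx1-2 is a homeobox gene of the caudal epiblast and its bipotent neuromesodermal progenitors, and 3 probe sets read it. Probe set 1422049_at gave 1.26, 0.845 and 1.12 in the wild-type pools and 0.924, 0.570 and 1.08 in the mutant pools. Probe set 1426177_a_at gave 1 in wild-type pools 1 and 2 and 1.21 in the third, against 0.978, 0.590 and 1.06 for the mutant. These 2 probe sets were lowest in mutant pool 2, as Cdx2 was. Probe set 1422050_at gave 1.06, 0.942 and 1.81 in the wild-type pools and 0.703, 0.929 and 1.10 in the mutant pools. It was lowest in mutant pool 1 and stood highest in wild-type pool 3, where 88 of 22626 probe sets had a higher ratio. The log2 differences were -0.36 (SE 0.23), -0.33 (SE 0.21) and -0.44 (SE 0.25) for 1422049_at, 1426177_a_at and 1422050_at. Without mutant pool 2 the first and the second of these were -0.09 and -0.06, and without wild-type pool 3 the last was -0.16 (-0.27 without mutant pool 1). All 3 had overlapping genotypes, so the gene gave like signs that rested on different pools.

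Agreement between probe sets of 1 gene was measured as the root mean square distance of their log2 ratios over the 6 pools, 0 for identical profiles. The distance was 0.18 between Nkx1-2 probe sets 1422049_at and 1426177_a_at, and 0.45 and 0.41 between each of them and 1422050_at. For the Cdx2 pair it was 0.25 and for the Sall4 pair 0.18. The median over 12821 same-gene pairs on the array was 0.21. The third Nkx1-2 probe set thus lay farther from the others than is usual for a shared gene, a difference for which no test was run.

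Evx1, a homeobox gene of the primitive streak and tail bud, gave 1.16, 0.886 and 1.34 in the wild-type pools and 0.876, 0.910 and 1.09 in the mutant pools. Wild-type pool 2 lay among the mutant pools. The log2 difference of -0.22 (SE 0.16) was -0.08 without wild-type pool 3 and -0.38 without wild-type pool 2. Sall4, a zinc finger gene of pluripotent and early progenitor cells, gave 0.995, 1.01 and 1.18 in the wild-type pools and 1.08, 0.972 and 0.923 in the mutant pools by 1424152_at. By 1424153_s_at it gave 1.08, 0.989 and 1.07 in the wild-type pools and 0.837, 0.986 and 1.01 in the mutant pools. Both sets of values overlapped between genotypes and stayed near 1. The log2 differences were -0.09 (SE 0.12) and -0.15 (SE 0.12), with 95% intervals of -0.36 to 0.18 and -0.41 to 0.11. They were -0.02 without wild-type pool 3 for the first probe set and -0.06 without mutant pool 1 for the second.

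**Figure D3:**
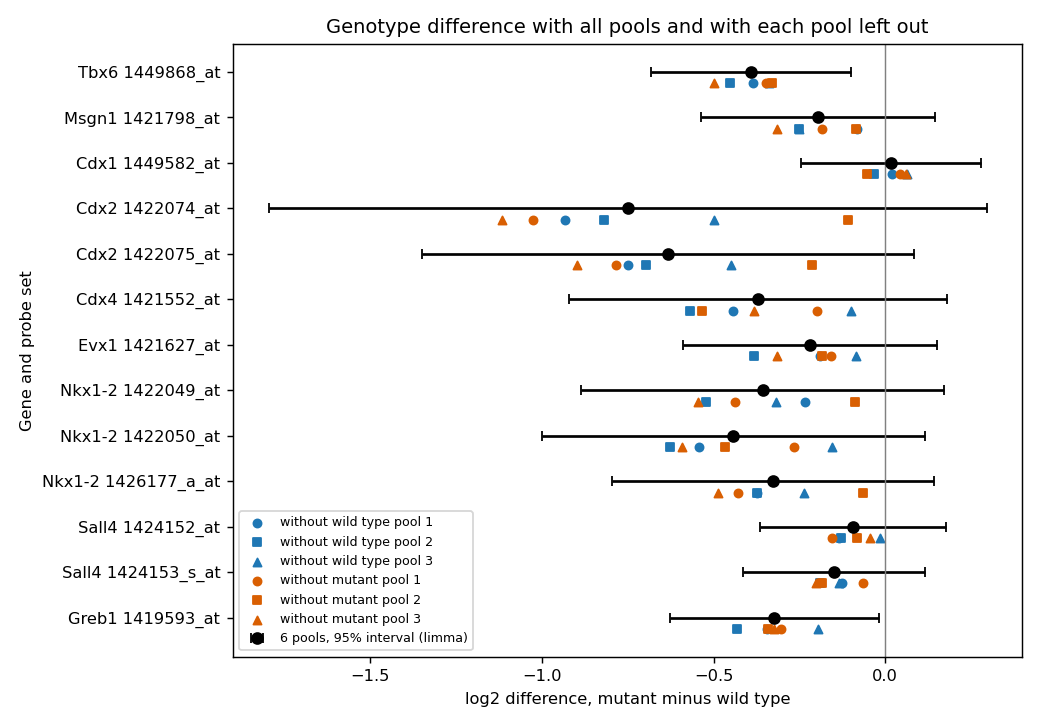
log2 difference, mutant minus wild type, of each member probe set (horizontal axis), with black points and 95% limma intervals for all 6 pools and coloured marks for the value without each pool. Tbx6 stays between -0.50 and -0.33 without any pool, whereas the Cdx2 probe sets move to -0.11 and -0.21 without mutant pool 2.

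Spread within a genotype differed widely among the members. It was above the 90th percentile of all probe sets for 6 of 13, the probe sets of Cdx2, Cdx4 and Nkx1-2, with Cdx2 probe set 1422074_at at the 99.8th. Tbx6 and Greb1 lay at the 45.4th and 54.2nd percentile, and Cdx1 and both Sall4 probe sets between the 23.2nd and the 30.1st. The lowest of the 6 values lay in a mutant pool for 12 of 13 probe sets (41.1% over all probe sets) and the highest in a wild-type pool for 12 of 13 (60.3%). Wild-type pool 3 gave the highest value for 9 of 13, beside 34.1% of all probe sets. Mutant pool 2 gave the lowest for 6 of 13, beside 10.8%.

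Mutant pool 2 stood apart over all probe sets by low ratios and by disagreement between probe sets of 1 gene. It had a ratio below 0.6 for 2.1% of all probe sets, against 1.25% to 1.46% in the other pools. Of 12821 pairs of probe sets that share a gene, 1.38% differed by at least 1 on the log2 scale in this pool, against 0.343% to 0.858% in the others. For example, Gja1 stood at 0.415 there by 1 of its probe sets and at 0.943 by another. Wild-type pool 3 stood out by another measure. It gave the highest of the 6 values for 34.1% of all probe sets, while mutant pool 2 gave the lowest for 10.8%. The low Cdx2 values lie in mutant pool 2, where both Cdx2 probe sets were low (0.274 and 0.409). Their distance over the 6 pools was 0.25, beside a median of 0.21 for same-gene pairs. Nkx1-2 probe sets 1422049_at and 1422050_at differed here (0.570 and 0.929), but also in wild-type pool 3 (1.12 and 1.81). In mutant pool 1 they differed the other way (0.924 and 0.703). The part of such disagreement in the Cdx2 and Nkx1-2 values was not tested.

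Wild-type pool 3 and mutant pool 2 set much of the size of the members' difference. The median over the 13 probe sets was -0.19 when wild-type pool 3 was left out (12 of 13 lower by sign) and -0.18 when mutant pool 2 was (13 of 13). Taken pool by pool, the 13 probe sets had median log2 ratios of 0.10, 0 and 0.27 for the wild type, against -0.11, -0.14 and 0.08 for the mutant. Mutant pool 3 lay above wild-type pool 2, so the genotypes overlapped at this level. The count of member probe sets without overlap, 2 of 13 with all pools, moved with the pool left out, as did the share of all probe sets. It was 2, 5 and 2 of 13 without wild-type pools 1, 2 and 3, beside 7.04%, 4.62% and 8.5%. It was 3, 2 and 7 of 13 without mutant pools 1, 2 and 3, beside 5.1%, 5.26% and 5.5%.

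Markers of other tissues in the dissected piece were read in the same pools. Somite markers (14 probe sets of 11 genes) had medians of -0.26, 0.03 and -0.26 in the wild-type pools and -0.02, 0.09 and -0.11 in the mutant pools. They were thus low in wild-type pools 1 and 3 and highest in mutant pool 2, and 11 of 14 probe sets were higher in the mutant by sign (8 of 14 without mutant pool 2). Only 10 of the 14 had a median ratio of 1, as all 13 members did. The rest had lower medians, which pulls the somite medians down, so their level is not comparable with the members'. Visceral endoderm markers (25 probe sets, 18 with a median ratio of 1) were at -0.28 in wild-type pool 3, against -0.11 to 0.04 in the other pools. Of these, 17 of 25 were higher in the mutant by sign, 3 without overlap, beside 3.05% of all probe sets. The number higher was 11 of 25 without wild-type pool 3 and 12 of 25 without mutant pool 1. Lateral plate and allantois markers were higher in the mutant by sign for 17 of 21 probe sets, with a median log2 difference of 0.11 (0.02 without wild-type pool 3). In that list 2 probe sets of Gata4 and 1 of Gata6 lay wholly above the wild type, beside 3.05% of all probe sets, and none passed the test. Both Gata4 probe sets were highest in mutant pool 1 (1.526 and 1.216). By 1418863_at, Gata4 in mutant pool 3 (1.002) barely exceeded wild-type pool 1 (0.998). Gata6 overlapped by its other probe set, 1425463_at. Gut endoderm, a tissue that itself expresses Cdx2, had marker medians (14 probe sets) of -0.14, 0.05 and 0.10 for the wild type, against -0.10, 0.0086 and 0.06 for the mutant. They were highest in wild-type pool 3, as Cdx2 was, and in the middle of the pools in mutant pool 2, where Cdx2 was lowest. Heart muscle markers (20 probe sets) were at 1.98 in mutant pool 1, against -0.20 to -0.0014 elsewhere. Without mutant pool 1 the log2 difference was -0.35 for Tbx6, -0.30 for Greb1 and -0.19 for Msgn1, close to the values with all pools. It was smaller for Cdx4 (-0.20), Nkx1-2 1422050_at (-0.27), Evx1 (-0.16) and Sall4 1424153_s_at (-0.06). It was larger for both Cdx2 probe sets (-1.03 and -0.79), Nkx1-2 1422049_at (-0.44) and 1426177_a_at (-0.43), and Sall4 1424152_at (-0.16). Cdx1 gave 0.04. The part of these tissues in the members' differences was not tested.

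**Figure D4:**
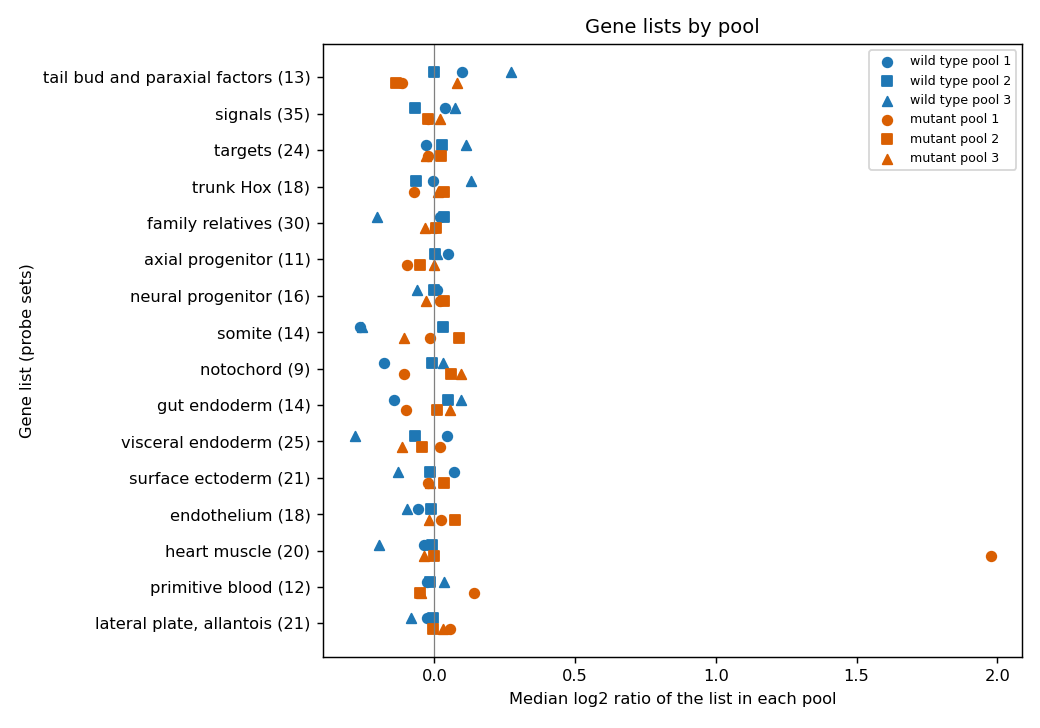
Median log2 ratio of each gene list in each pool (horizontal axis), wild type in blue and mutant in orange, with the number of probe sets of the list in brackets. The members reach 0.27 in wild-type pool 3, where somite markers are at -0.26, and heart muscle markers reach 1.98 in mutant pool 1. The somite list, unlike the members, includes probe sets with a median ratio below 1, which lowers its points.

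Genes that act around these factors had list medians nearer 0. Some single probe sets were nevertheless lower by more than the members' median of -0.33, among them Hes7 (-0.43) and Cyp26a1 (-0.39). Among the Wnt, FGF and retinoid signals of the tail bud, 19 of 35 probe sets were lower and 16 higher by sign, around a median of -0.04 on the log2 scale, and none passed the test in either direction. Cyp26a1, which clears retinoic acid from the tail bud, gave 1.17, 0.948 and 1.64 in the wild-type pools and 1.03, 0.966 and 0.818 in the mutant pools. As for Cdx4, its high point was wild-type pool 3, and its difference of -0.39 was -0.17 without that pool. Fgf8, the main tail bud FGF, gave 0.993, 1.01 and 1.45 against 0.964, 0.955 and 1.05 (log2 difference -0.20, and -0.02 without wild-type pool 3). Wnt3a gave 1.14, 0.961 and 1.04 against 0.918, 0.853 and 1.07 (-0.15, and -0.07 without mutant pool 2), and in order of pools it followed Msgn1 at both ends, with wild-type pool 1 highest and mutant pool 2 lowest. The 1 of 35 probe sets without overlap was Fgf4 1420086_x_at, higher in the mutant by 0.15, beside 3.05% of all probe sets for higher ones. The other 3 Fgf4 probe sets overlapped, at -0.04, 0.02 and 0.16.

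Among the targets and partners in segmentation, 15 of 24 probe sets had a lower mutant mean, with a middle log2 difference of -0.05 (-0.02 without wild-type pool 3), and none passed. Hes7, a clock repressor, gave 1.09, 1.16 and 1.08 in the wild-type pools and 0.720, 0.842 and 0.916 in the mutant pools, without overlap. Its log2 difference was -0.43 (limma unadjusted p = 0.00577, adjusted p = 0.9999), and from -0.51 to -0.34 without 1 pool. This was a larger difference than that of Tbx6 (-0.39), and it also kept most of its size without any pool. Lfng, which modifies Notch, had no overlap by 1449943_at (log2 difference -0.28, and -0.16 without mutant pool 2). There mutant pools 1 and 3 (0.993 and 0.994) lay just below wild-type pool 1 (1.006). Lfng overlapped by 1420643_at (-0.27, and -0.16 without wild-type pool 3). Hes7 and Lfng 1449943_at were the 2 of 24 without overlap, beside 1.99% of all probe sets for lower ones. The Tbx6 targets Dll1 (-0.15, and -0.07 without mutant pool 2) and Mesp2 (-0.18, and -0.07 without wild-type pool 3) overlapped. Trunk Hox genes, which Cdx factors regulate, had 12 of 18 probe sets lower and a median of -0.09, with none past the test and none without overlap. Without wild-type pool 3, 8 of 18 were lower and the median was 0.02.

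Of family relatives outside the tail bud, 21 of 30 probe sets were higher and 9 lower by sign, with a median of 0.07 on the log2 scale and none past the test. That direction rested on wild-type pool 3, where their median log2 ratio was -0.20, and without that pool 12 of 30 were higher and the median was -0.02. Eomes, a T-box gene of the early streak, gave -0.05 and 0.07 by its 2 probe sets, and Sall1 gave -0.12 (0.05 without mutant pool 2). Greb1l is not analysed here. Of the axial progenitor list, 10 of 11 probe sets were lower, with a median of -0.10 and none past the test (7 of 11 and -0.03 without wild-type pool 1). Its neural member Sox2 gave 0.852, 1.01 and 1.77 in the wild-type pools and 0.951, 1.16 and 0.993 in the mutant pools. The high point was again wild-type pool 3, and the difference of -0.16 turned to 0.16 without that pool.

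**Figure D5:**
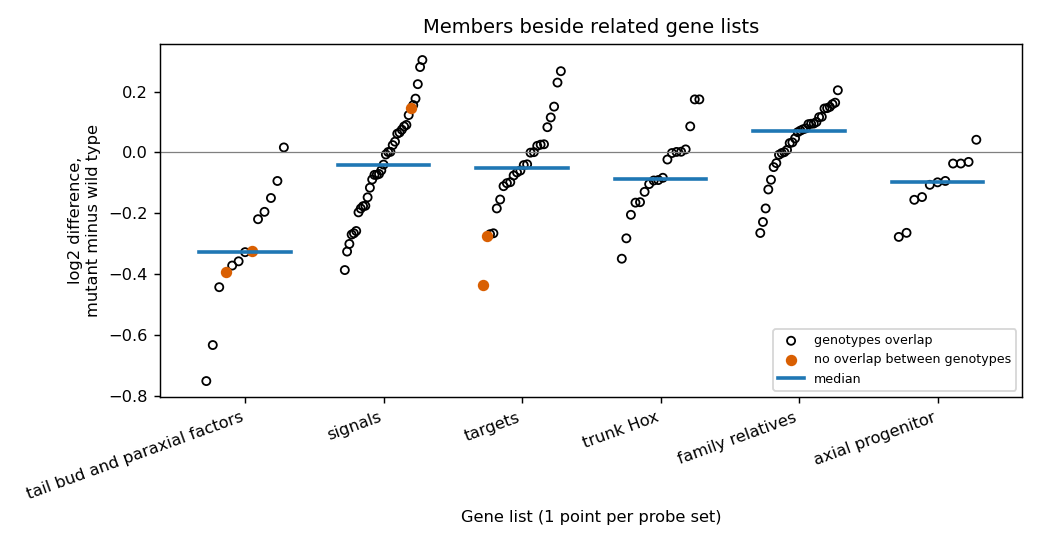
log2 difference, mutant minus wild type, of each probe set (vertical axis) in the members and in 5 related lists, with blue lines for medians and filled points for probe sets without overlap between genotypes. The members' median is -0.33, and those of the related lists run from -0.10 to 0.07.

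Among 20367 probe sets of other named genes, those closest to the Tbx6 profile over the 6 pools, by root mean square distance of log2 ratios, were Cdv3 (0.07), Swsap1 (0.07) and Bzw1 (0.07). Closest to Msgn1 were Exoc4 (0.05), Epha1 (0.05) and Arnt (0.07). Closest to the mean of the 13 member probe sets were Topors (0.06), Zdhhc2 (0.07) and Pold3 (0.07). None of these 9 genes was in the tail bud, signal or segmentation lists. Among the members, the nearest to Tbx6 were Sall4 1424153_s_at (0.16), Evx1 (0.17) and Msgn1 (0.18). A search over 20367 probe sets tends to find nearer profiles than a search over the few members. These distances therefore do not show whether the members share the Tbx6 profile.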

How the data were processed

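The file holds 1 column for each of 6 Affymetrix MOE430A arrays. Judged from the values, the deposited numbers are linear ratios that the authors scaled so that a probe set's median is 1: this held within 0.01 for 21015 of 22626 probe sets, among them all 13 members, and the median was lower for 1611. The submitters' processing notes list RMA and MAS5 without a role, so summarisation, background step and normalization between arrays are unknown. Here log2 ratios, with no offset added, entered a limma 3.58.1 model with genotype alone (R 4.3.3; lmFit, then eBayes; two-sided tests). All probe sets other than Affymetrix controls were tested, with Benjamini-Hochberg adjustment and a threshold of 0.05, and the step was tested on simulated data. Names came from the platform annotation (20380 probe sets with 1 symbol, 691 with several, 1555 unnamed here), updated by Entrez ID through RefSeq GRCm38.p6.

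The members, the gene lists and the genes named were chosen with earlier results of these data known. Named were every member, 11 partner genes and any gene of 5 related lists without overlap between genotypes, and for likeness the 3 nearest probe sets to Tbx6, Msgn1 and the members' mean. Counts over lists are of probe sets. The bounds of 0.6 and 1 used to describe single pools, and the examples from Gja1, Gata4 and Gata6, were chosen after the values were seen. The series' design text calls the pools biological replicates, and the number of arrays limits the precision. Same-numbered pools did not deviate together in every pair (correlations 0.21, 0.02 and 0.17), so numbers were not used to pair them. Alternatives were an offset of 1, quantile normalization, centring, a filter on medians, robust variances, array weights, a replicate block and each pool left out. Plots were drawn with matplotlib 3.10.9.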

Additional observations from a re-analysis of the deposited data

How the results depend on the processing

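No member passed under any of the 13 alternatives (lowest adjusted p = 0.180, with array weights), and 10 to 13 of 13 probe sets stayed lower by sign. The count over all probe sets, 1 (Dll3), was 2 with quantile normalization (with Hnrnpl), 4 with array weights (with Hnrnpl, Nrarp and Bcat2), 1 with the replicate block and from 0 to 1 without 1 pool. The members' median of -0.33 was -0.165 with an offset of 1, which shrinks ratios by construction. It was -0.0856 with array weights, and ran from -0.431 to -0.183 without 1 pool. The array weight fit did not converge. It gave wild-type pool 2 a weight of 83.9, against 0.137 (wild-type pool 3) to 0.756 (mutant pool 2) for the others. The probe sets without overlap, 2 of 13 beside 1.99% of all, numbered from 2 to 7 without 1 pool, beside 4.62% to 8.5%. With the replicate block 6 members, not 2, had an unadjusted p under 0.05, beside 1.92% of all probe sets, not 1.16%, and none passed.

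The sign turned with array weights for Cdx4 (0.0643), Evx1 (0.103), Sox2 (0.0546), Fgf4 1420085_at (-0.0223), Eomes 1426001_at (0.0243) and Eomes 1435172_at (-0.0340), and with quantile normalization for Fgf4 1420085_at (-0.0037). It also turned without some pool for Cdx1 (range -0.0539 to 0.0639), Sox2 (-0.371 to 0.156), Sall1 (-0.248 to 0.0480), Eomes 1426001_at (-0.172 to 0.0463), Eomes 1435172_at (-0.0226 to 0.132), Fgf4 1420085_at (-0.0182 to 0.0563) and Fgf4 1450282_at (-0.159 to 0.0333). The cause was not tested. Of 390 comparisons of single probe sets with their value in all pools as deposited, 367 kept direction and side of the threshold. This count is no measure of stability. Only Dll3 passed at the start, so the other probe sets could hardly change side. Robust variances, the replicate block and the filter on medians leave a log2 difference unchanged by construction.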
